A study of Mus musculus with 4 samples.

Results

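The genes described here encode the receptors of interleukin 18 (IL-18) and interleukin 33 (IL-33), the cytokine IL-18 itself, its secreted decoy and a receptor that dampens signalling of the family. They are Il18r1, Il18rap, Il1rl1, Il18, Il18bp and Sigirr. They were taken by name: every gene spot of the arrays that carried 1 of these 6 names was used, in both channels. This gave 10 probes and 19 spots, of 41174 probes and 43379 gene spots in all, because the Il18 probe was printed 10 times on each array. Of the 10 probes, 9 were bright enough to be tested, at least 1 for each of the 6 genes.

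The cells were mouse mucosal mast cells, the mast cell type of epithelia such as the gut lining, differentiated in vitro. Cells stimulated with IL-18 (labelled with the red dye Cy5) were hybridised together with their own unstimulated control (labelled with the green dye Cy3) on a two-colour array, and the 4 arrays are 4 biological replicates. No source used here gives the dose or duration of stimulation, the mouse strain or the origin of the precursor cells. The labels do not say whether replicates came from separate animals or cultures, so p-values measure the spread between these 4 pairs. All arrays had the same dye orientation, so the effect of IL-18 and a difference between dyes cannot be told apart.

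IL-18 and IL-33 are cytokines of the IL-1 family. IL-18 binds the chain encoded by Il18r1, which then recruits the signalling chain encoded by Il18rap. IL-33 binds ST2, the product of Il1rl1, which pairs with the accessory chain encoded by Il1rap, and ST2 is a characteristic surface receptor of mast cells. Both receptor complexes signal through MyD88 to NF-kB. IL-18 is made as an inactive precursor that caspase-1 cleaves, and mature IL-18 is captured in the extracellular space by the IL-18 binding protein, the product of Il18bp.

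In the stimulated channel 57.9% to 62.7% of gene spots were well above background, and in the unstimulated channel 49.9% to 54.0%. Log2 ratios of different arrays correlated across the 24104 tested probes with Pearson's r from 0.743 to 0.905; probes are not independent of one another. The labelled cell type was checked on 14 mast cell markers, of which 13 were tested. Fcer1a, a chain of the high-affinity IgE receptor, had normalized signals between 168028 and 195080 in stimulated cells and between 79417 and 121079 in unstimulated cells. The mucosal chymase gene Mcpt1 lay between 127966 and 150875 in stimulated cells and between 73509 and 95055 in unstimulated cells. Mcpt2 lay between 102170 and 117360 in stimulated cells and between 88373 and 101237 in unstimulated cells. Other proteases of the list were bright too. Mcpt4 ran from 85192 to 94555 in stimulated and from 68687 to 75144 in unstimulated cells. Cma1 ran from 161413 to 177176 in stimulated and from 88745 to 100819 in unstimulated cells. Whether the cells were of the mucosal rather than another mast cell type was not tested. Kit, the receptor of stem cell factor, lay between 40218 and 48803 in stimulated cells and between 35843 and 47319 in unstimulated cells. In bulk RNA a change in the share of a cell type and a change in RNA per cell cannot be told apart.

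Il18r1, Il18, Il18bp and Il1rl1 were higher in stimulated cells, Il18rap was lower, and Sigirr did not pass the test. All of these differences were small: the mean log2 ratios of the 6 genes, stimulated over unstimulated, lay between −0.23 and 0.33 at each gene's brightest tested probe, with a median of 0.23 against 0.032 over all 16402 tested genes. By gene, 4 of 6 were called higher, where 26.6% of all tested genes were, and 1 of 6 was called lower, where 20.7% were. By probe, 6 of 9 were called higher and 1 lower, beside 24.5% and 24% of all tested probes. A probe was called when limma's adjusted p over all tested probes was under 0.05. All 6 probes called higher were above 0 on 4 of 4 arrays, as were 32.6% of tested probes, and the 1 called lower was below 0 on 4 of 4, as were 29.5%. The direction of Il18rap turned with median centring of the arrays and that of Il1rl1 at its brightest probe with the scanner software's log ratio. Il18rap was not called with flagged local backgrounds kept, as first planned (limma, adjusted p = 0.124).

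**Figure D1:**
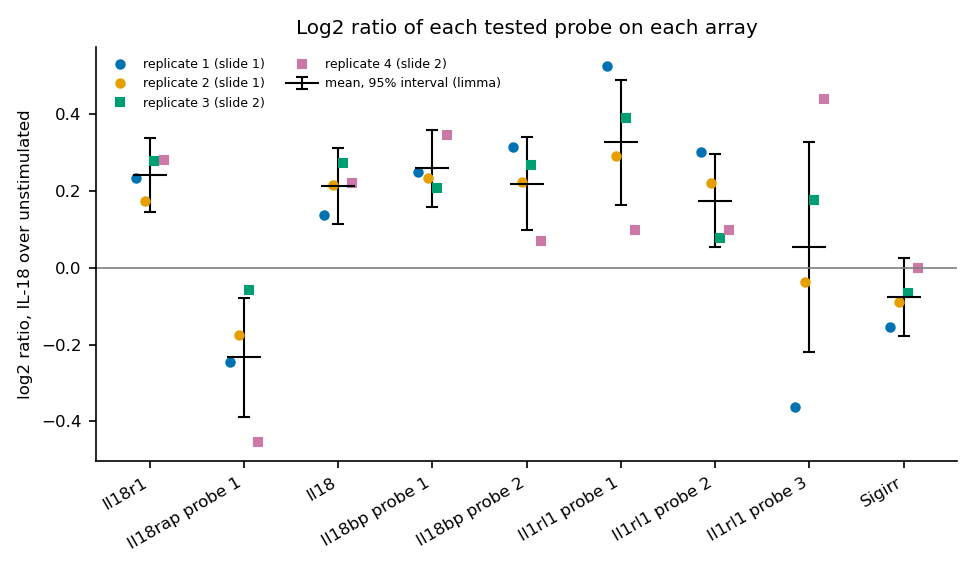
Log2 ratio (stimulated over unstimulated, vertical axis) of each of the 9 tested probes on each array, as points shaped by slide, with the mean and its 95% confidence interval from limma as bars (n = 4 arrays). The 6 probes called higher lie above 0 on all 4 arrays, Il18rap probe 1 lies below 0 on all 4, and Il1rl1 probe 3 falls on both sides.

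Il18r1 encodes the chain that binds IL-18. Its probe read 394, 378, 343 and 332 in stimulated cells of replicates 1 to 4, against 335, 335, 283 and 273 in the unstimulated cells of the same replicates (normalized signal in arbitrary units, which includes an offset of 50). Stimulated cells were higher within every pair, while the groups as a whole overlapped, since the signal of both channels was lower in replicates 3 and 4. The log2 ratios were 0.24, 0.17, 0.28 and 0.28, with a mean of 0.24 ± 0.050 (SD, n = 4), or 1.18-fold (95% confidence interval 0.15 to 0.34 on the log2 scale, adjusted p = 0.00321). This was one of 2 probes whose call held in all 19 alternative settings, over which the mean lay between 0.20 and 0.71.

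Il18r1 is also expressed by natural killer cells, T cells and basophils, and markers of these cells were measured beside it. For scale, 26.6% of all tested genes were called higher and 20.7% lower. Of 6 natural killer cell markers, 2 were tested and both were higher: Klrd1 by 0.26 ± 0.074 and Ncr1 by 0.24 ± 0.11 (log2, SD, n = 4). Their summed signals ran from 506 to 648 in stimulated cells and from 421 to 507 in unstimulated cells, and Klrb1c, Klra1, Klrk1 and Eomes were not bright enough to be tested. Of 8 T cell markers, 6 were tested and 1 was higher, Cd3e by 0.22, with summed signals of 756 to 836 in stimulated and 719 to 790 in unstimulated cells; Cd8a and Cd247 were not tested. Of 3 basophil markers tested, Mcpt8 was higher by 0.40 and Cd200r3 by 0.26, while Prss34, at 0.091, did not pass. A second Cd200r3 probe read 0.10 and did not pass either. The summed signals were 28402 to 40287 in stimulated and 25470 to 29729 in unstimulated cells. Most of each sum was Cd200r3, at 26371 to 38781 in stimulated and 23838 to 28511 in unstimulated cells. Mcpt8 was far dimmer, at 843 to 1661 in stimulated and 585 to 1262 in unstimulated cells. Whether the Cd200r3 signal came from basophils or from the mast cells themselves was not tested. The part of such cells in the ratio of Il18r1 was not tested.

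Other cell types were checked in the same way, beside the same shares of 26.6% higher and 20.7% lower over all tested genes. Of 8 tested markers of macrophages and monocytes, 2 were higher and 1 lower, and of 3 tested dendritic cell markers 1 was higher and 1 lower. Of 3 eosinophil markers 1 was higher, Ear1 by 0.71, while Epx, Prg2, Prg3 and Il5ra were not bright enough to be tested. Of 3 B cell markers 1 was higher, and of 4 neutrophil and 3 fibroblast markers 0 were called in either direction by limma, with 1 of them, S100a9, under 0.05 before adjustment.

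Il18rap encodes the signalling chain that joins Il18r1 once IL-18 is bound. Its probe 1 read 565, 594, 547 and 539 in stimulated cells, against 670, 671, 569 and 737 in unstimulated cells. The unstimulated sample was the higher one in every pair, least so in replicate 3 and most in replicate 4. The log2 ratios were −0.25, −0.18, −0.058 and −0.45, with a mean of −0.23 ± 0.17 (SD, n = 4), or 0.851-fold (interval −0.39 to −0.078, adjusted p = 0.0233). The call is close to the threshold and did not hold in 9 of 19 alternative settings. It was lost without replicate 1 (−0.23, adjusted p = 0.0663) and without replicate 2 (−0.25, adjusted p = 0.0636), and the sign turned with median centring (0.34).

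The value of Il18rap on replicate 1 also depended on the local backgrounds there. A few spots of that array had smeared backgrounds, up to 32441.5 units in the unstimulated channel where the median was 28.5. With backgrounds that the scanner software had flagged replaced by the array's median, as in all values given here, Il18rap read −0.25 on replicate 1. With them kept, as first planned, it read −0.0058 there, and the mean over the arrays was −0.17 (limma, adjusted p = 0.124). Il18rap was thus not called lower under the planned processing. The replacement was chosen after seeing the data.

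A second Il18rap probe, designed to another cDNA, was not well above background on any array in either channel. It read 61.6, 57.4, 61.1 and 64.0 in stimulated cells and 63.8, 61.8, 59.8 and 63.9 in unstimulated cells, near the floor that the offset of 50 sets, and it was not tested. At these signals a fall or a small rise of that transcript could not have been seen.

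The log2 ratio of Il18r1 exceeded that of Il18rap probe 1 on 4 of 4 arrays, by 0.48, 0.35, 0.34 and 0.74, or 0.48 ± 0.19 on average (SD, n = 4). This difference does not change when a constant is added to all ratios of an array. It was 0.57 with the software's log ratio and 0.37 with median centring, above 0 in both. The exact two-sided sign-flip test gave p = 0.125, the smallest that 4 arrays allow, and 0.3125 after Benjamini-Hochberg adjustment over the 5 pairs of probes compared, so it could not pass.

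Il1rl1, Il18r1 and Il18rap are neighbours on mouse chromosome 1, in a row of receptor genes that runs Il1r2, Il1r1, Il1rl2, Il1rl1, Il18r1 and Il18rap in the RefSeq annotation of GRCm38.p6. Only 133 bases separate the annotated end of Il1rl1 from the first start of Il18r1. Along this row the log2 ratios at the brightest probes were 0.25 for Il1r2, 0.30 for Il1r1, −0.067 for Il1rl2, 0.33 for Il1rl1, 0.24 for Il18r1 and −0.23 for Il18rap. Il1r2, Il1r1, Il1rl1 and Il18r1 were called higher and Il18rap lower, with the exceptions that Il1rl1 turned with the software's log ratio and Il18rap with median centring. Il1r1 and Il1r2 are named for their position, after their values were seen.

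The stretches before the starts of these 3 receptor genes are shown because neighbours differed in direction and because Il1rl1 has 2 annotated starts. In mast cells the distal start of Il1rl1 is the one known to be used, and GATA factors are known to act there. Capitals mark AGATAA or TGATAA, forms of the motif of GATA factors, read on either strand, so that TTATCT is a match on the opposite strand. The forms ending in G, AGATAG and TGATAG, were not searched and are not marked. All stretches are on the forward strand of GRCm38.p6, from RefSeq, and end at the base before the start.
Il1rl1, distal start, chr1:40429320-40429569: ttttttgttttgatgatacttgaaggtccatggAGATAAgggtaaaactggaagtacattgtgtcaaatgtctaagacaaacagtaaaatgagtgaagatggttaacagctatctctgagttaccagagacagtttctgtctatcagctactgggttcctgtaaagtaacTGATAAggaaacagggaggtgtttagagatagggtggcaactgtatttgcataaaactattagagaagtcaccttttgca
Il1rl1, proximal start, chr1:40439379-40439628: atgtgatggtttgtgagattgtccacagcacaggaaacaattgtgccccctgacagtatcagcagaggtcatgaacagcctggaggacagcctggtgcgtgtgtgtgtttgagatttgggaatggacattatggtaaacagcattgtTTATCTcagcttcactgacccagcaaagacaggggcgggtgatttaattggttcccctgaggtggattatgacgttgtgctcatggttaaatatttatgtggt
Il18r1, gap after Il1rl1, chr1:40465419-40465551: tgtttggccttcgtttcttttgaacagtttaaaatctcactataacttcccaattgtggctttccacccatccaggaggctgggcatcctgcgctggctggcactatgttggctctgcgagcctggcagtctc
Il18rap, chr1:40515112-40515361: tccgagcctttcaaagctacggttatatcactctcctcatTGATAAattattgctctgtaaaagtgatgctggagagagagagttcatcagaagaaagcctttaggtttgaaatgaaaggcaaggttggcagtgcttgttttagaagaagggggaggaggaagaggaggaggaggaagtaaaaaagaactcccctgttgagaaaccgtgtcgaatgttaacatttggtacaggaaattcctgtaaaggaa

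The distal stretch of Il1rl1 held 2 matches, 217 and 80 bases before the start, and the proximal one held 1, at 103 bases. Il18rap held 1 match, 210 bases before its start, and the gap before Il18r1 held none (0). That gap, of 133 bases, is shorter than the other stretches and lies before the first of 3 annotated starts of Il18r1. The full 250 bases before each of these starts held 0 matches as well. Of the 8 annotated windows of 250 bases for Il1rl1, Il18r1, Il18rap, Il18 and Il18bp, 3 held AGATAA or TGATAA, and 16.6% of 32851 such windows of all genes did. The AP-1 motif TGANTCA was found in 0 of the 8 and in 6.75% of all windows, and the NF-kB consensus in 0 of the 8 and in 7.25% of all. The motifs were searched on both strands, and the windows of Il18r1 overlap one another. A match describes the letters only.

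Il1rl1 encodes ST2 in a membrane form, which carries the signal of IL-33, and in a shorter soluble form, which binds IL-33 as a decoy. The array held 3 probes, and by their RefSeq accessions probe 1 belongs to transcript variant 1 and probes 2 and 3 to variant 2. Variant 1 is the longer, membrane form. Whether probe 1 also detects variant 2, or probes 2 and 3 also variant 1, was not tested, since probe sequences were not used here.

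Il1rl1 probe 1 read 119982, 114850, 94149 and 96692 in stimulated cells, against 83302, 93824, 71839 and 90284 in unstimulated cells. Every stimulated value lay above every unstimulated one, which held in this direction for 7.6% of all tested probes. The log2 ratios were 0.53, 0.29, 0.39 and 0.099, with a mean of 0.33 ± 0.18 (SD, n = 4), or 1.25-fold (interval 0.16 to 0.49, adjusted p = 0.00785). Replicate 4 contributed least. The direction depended on the dye normalization: the log ratio computed by the scanner software averaged −0.082 (adjusted p = 0.388).

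Of 13 tested mast cell markers, 7 were higher, 2 lower (Tpsb2 at −0.74 and Mitf at −0.39) and 4 neither. Gata2, counted as higher at 0.34, lacked a value on replicate 3. A second Gata2 probe was called lower, at −0.27 (limma, adjusted p = 0.00576). The markers were not set against probes of their own brightness. Across all tested genes 26.6% were called higher and 20.7% lower. The summed signals of the mast cell markers were 942048 to 1067970 in stimulated and 615491 to 767858 in unstimulated cells. With the software's log ratio Mcpt2, called higher here, read −0.14 and Mcpt4, also called higher, −0.047. The part of these markers in the ratio of Il1rl1 was not tested.

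Il1rl1 probe 1 is among the brightest of the array, brighter than 99.8% of tested probes. The 200 tested probes nearest to it in brightness had a median log2 ratio of 0.47, with the middle 50% of them between 0.26 and 0.73, so that Il1rl1 probe 1 lay below the median of probes of like brightness. With median centring, which applies no correction by brightness, it read 1.67 and the same 200 probes had a median of 1.76. With the software's log ratio these 200 had a median of 0.15. Under each of these 3 ways of processing its ratio was below the median of the probes of like brightness.

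**Figure D2:**
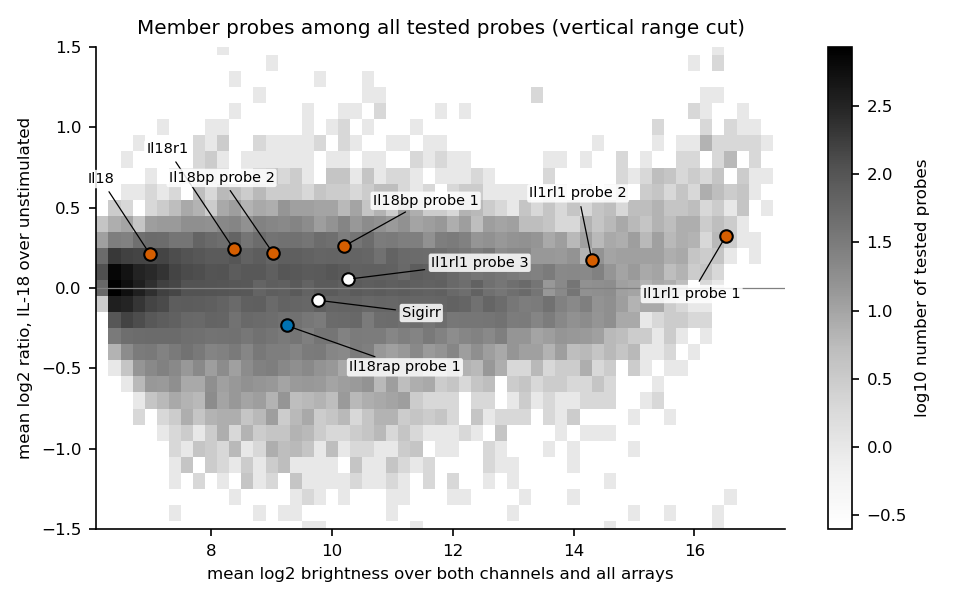
Mean log2 ratio (stimulated over unstimulated) against mean log2 brightness over both channels and all arrays, with all tested probes as a shaded count (log10 scale) and the 9 member probes as circles, orange where called higher, blue where lower, white where not called. At the bright end, where Il1rl1 probe 1 lies, the mass of probes turns upward; the largest ratios lie outside the range drawn.

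Il1rl1 probe 2, listed under the accession of the soluble variant, read 26287, 21415, 18966 and 19975 in stimulated cells and 21309, 18360, 17965 and 18655 in unstimulated cells. It was higher in every pair, though the groups overlapped. The mean log2 ratio was 0.18 ± 0.11 (SD, n = 4), or 1.13-fold (interval 0.055 to 0.30, adjusted p = 0.0262). The call was lost without replicate 1 (0.13, adjusted p = 0.0947) and without replicate 2 (0.16, adjusted p = 0.119). Unlike probe 1, it kept its value with the software's log ratio, and the 200 probes of like brightness had a median of −0.036.

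Il1rl1 probe 3, under the same accession, read 1260, 1219, 1282 and 1234 in stimulated cells, against 1619, 1251, 1134 and 909 in unstimulated cells. The stimulated signal was nearly level across the replicates and the unstimulated one was not. The log2 ratios were −0.36, −0.037, 0.18 and 0.44, with a mean of 0.055 ± 0.34 (SD, n = 4; interval −0.22 to 0.33, adjusted p = 0.719). Replicates 1 and 2, which shared a slide, averaged −0.20 and replicates 3 and 4, on the other slide, 0.31, so that the probe gave no direction.

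Whether the probes of Il1rl1 differed from one another could not pass a test with 4 arrays. Probe 1 exceeded probe 2 on 4 of 4 arrays, by 0.15 ± 0.14 on the log2 scale, but was 0.27 below it with the software's log ratio (−0.27). Against probe 3, probe 1 was higher by 0.27 ± 0.50 and probe 2 by 0.12 ± 0.44. The exact sign-flip tests gave p = 0.125, 0.5 and 0.75 for these pairs.

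**Figure D3:**
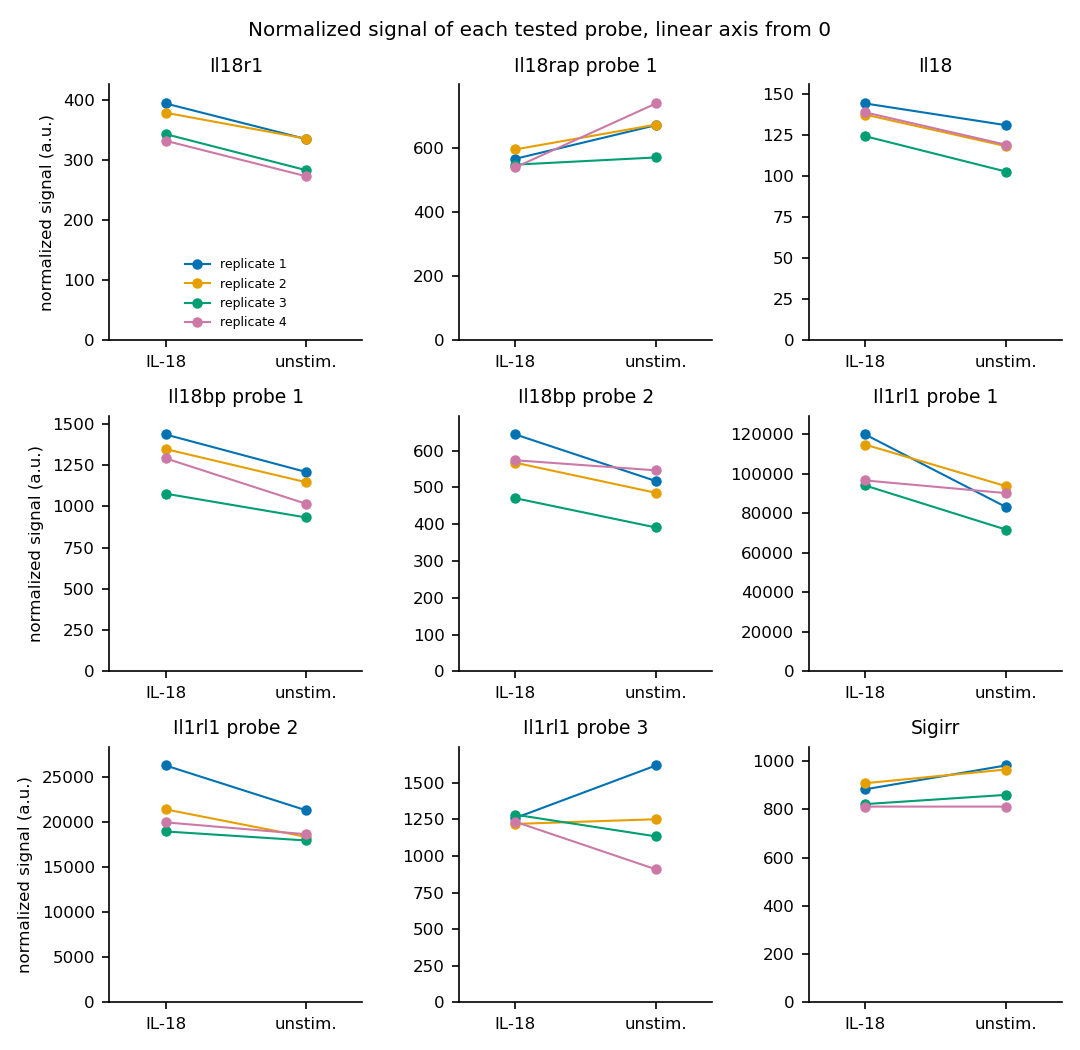
Normalized signal in arbitrary units (linear axes from 0) of each tested probe, with stimulated cells on the left and unstimulated cells on the right of each panel, and lines joining the 2 samples of a replicate. Lines fall to the right for the 6 probes called higher, rise for Il18rap probe 1, and cross for Il1rl1 probe 3.

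Il18 encodes IL-18 itself, the cytokine given to the cells. Averaged over its 10 spots, the probe read 144, 138, 124 and 139 in stimulated cells and 131, 118, 103 and 119 in unstimulated cells. The stimulated sample was higher in every pair. The log2 ratios were 0.14, 0.22, 0.27 and 0.22, with a mean of 0.21 ± 0.056 (SD, n = 4), or 1.16-fold (interval 0.11 to 0.31, adjusted p = 0.00583).

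The 10 spots give the error within an array, which single-spot probes lack. On each of the 4 arrays 10 of 10 spots had a ratio above 0, with a standard deviation between spots of 0.053 to 0.11. Spots ran from 0.071 to 0.22 on replicate 1, from 0.096 to 0.40 on replicate 2, from 0.15 to 0.49 on replicate 3 and from 0.12 to 0.34 on replicate 4. Spots of 1 array are not replicates of the condition. The signal was close to the offset of 50, which pulls ratios of dim probes toward 0: with an offset of 16 the mean was 0.31, and with the software's log ratio it was 0.48.

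**Figure D4:**
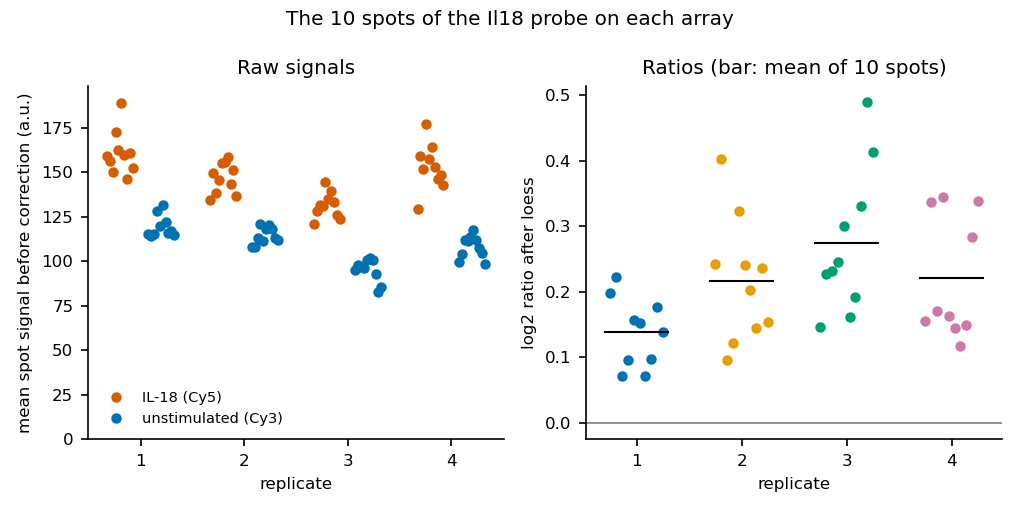
Left, mean signal of the 10 Il18 spots of each array before any correction (arbitrary units), with the stimulated channel left of the unstimulated one. Right, the log2 ratio of each spot after normalization, with the mean of 10 spots as a bar; every spot lies above 0 on all 4 arrays.

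Il18bp encodes the IL-18 binding protein, a secreted decoy that keeps IL-18 from its receptor. It was measured by 2 probes, both designed to the same transcript. Probe 1 read 1435, 1347, 1077 and 1290 in stimulated cells, against 1208, 1146, 932 and 1015 in unstimulated cells. Its log2 ratios of 0.25, 0.23, 0.21 and 0.35 gave a mean of 0.26 ± 0.061 (SD, n = 4), or 1.20-fold (interval 0.16 to 0.36, adjusted p = 0.00286). With Il18r1 it was the other probe whose call held in all 19 alternative settings, between 0.23 and 0.93.

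Il18bp probe 2 read 644, 567, 470 and 574 in stimulated cells and 517, 485, 391 and 546 in unstimulated cells. It too was higher in every pair, least in replicate 4. The mean was 0.22 ± 0.11 (SD, n = 4), or 1.16-fold (interval 0.099 to 0.34, adjusted p = 0.0112), and the call was lost without replicate 2 (0.22, adjusted p = 0.0551) or replicate 3 (0.20, adjusted p = 0.0553). The probes of this gene differed by 0.039 ± 0.16, with probe 1 higher on 2 of 4 arrays (exact sign-flip test, p = 0.875), a difference smaller than its spread.

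Sigirr encodes a receptor-like protein of the same family that dampens signalling by IL-1, IL-18 and IL-33 receptors. It read 882, 908, 821 and 811 in stimulated cells, against 981, 964, 859 and 811 in unstimulated cells. Stimulated cells were lower in 3 pairs and level in replicate 4. The mean log2 ratio of −0.077 ± 0.063 (SD, n = 4; interval −0.18 to 0.025) did not pass (adjusted p = 0.178), and the interval leaves room for a fall of 0.18 or a rise of 0.025 on the log2 scale.

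The arrays had no common scale that the design fixes, and this bears on every direction above. Centring each array's log ratios on the median without a correction by brightness moved the median of all tested probes by 0.42, to 0.43. By that scaling 70.7% of probes were called higher and 5.64% lower, beside 24.5% and 24% as reported, and 75.9% of genes higher and 3.54% lower. The software's log ratio called 26.4% of probes higher and 21.1% lower, and 28.5% and 17.4% of genes. With median centring Il18rap probe 1 read 0.34 and Sigirr 0.55. Both lay below the median-centred medians of the 200 probes nearest to them in brightness, which were 0.59 and 0.62. Also with median centring, Il18r1, at 0.71, Il18, at 0.38, and Il18bp probe 1, at 0.93, lay above theirs, at 0.53, 0.20 and 0.72. So relative to probes of like brightness these 5 kept the side they had in the values reported here, while Il1rl1 probe 1 lay below in both. The values reported here already had the trend of ratio with brightness taken out, so this outcome was largely fixed in advance. It is no separate check of the directions.

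**Figure D5:**
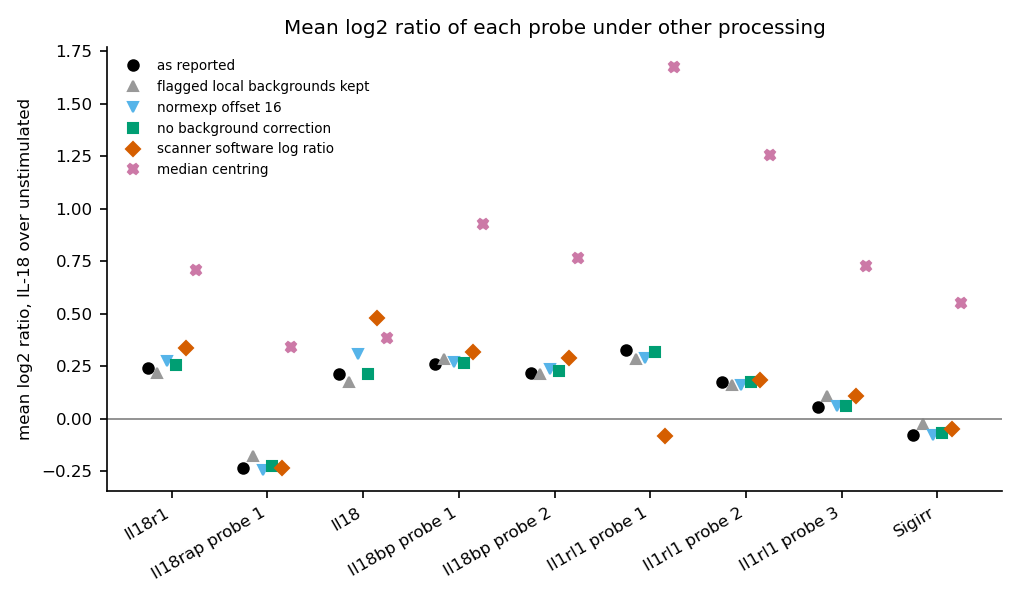
Mean log2 ratio (stimulated over unstimulated, n = 4 arrays) of each tested probe as reported and under 5 other ways of processing the same spots. Median centring lifts all 9 probes, and Il18rap probe 1 and Sigirr to above 0, while the scanner software's log ratio takes Il1rl1 probe 1 to −0.082.

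The other ligands and receptors of the IL-1 family were mostly higher. Of 14 on the array 9 were tested. Of the 9, 7 were called higher, 0 lower (limma, 0 also before adjustment) and 2 neither, with a median log2 ratio of 0.30. Among all tested genes 26.6% were called higher and 20.7% lower. Il1b, the gene of interleukin 1β, was higher by 2.18 ± 0.18, Il1f8 (now Il36b, an IL-36 cytokine) by 0.52 ± 0.26, Il1a by 0.45 ± 0.21 and Il1rn, which encodes the IL-1 receptor antagonist, by 0.41 ± 0.22 (log2, SD, n = 4). Il33, the ligand of ST2, was among the 7, at 0.28 ± 0.029. The 2 that did not pass were Il1rl2, the IL-36 receptor, and Il1rap. Il1rap, the accessory chain of ST2, read 0.12 ± 0.061 at its brightest probe (limma, adjusted p = 0.0562), with 2 further probes at −0.028 and 0.13. The probe at 0.13 was called higher (limma, adjusted p = 0.0323) but was dim, at 80 to 102 over both channels. Il1a read 2.01 with the software's log ratio; the cause of this difference was not tested.

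Genes that process IL-18 or form inflammasomes did not move one way. Of 14 tested, 7 were called higher, 3 lower and 4 neither, with a median of 0.084. Over all tested genes 26.6% were called higher and 20.7% lower. Casp1, which encodes the enzyme that matures IL-18, read 0.053 ± 0.084 (SD, n = 4; adjusted p = 0.373) and did not pass, nor did Casp8, Gsdmd and Panx1. The largest ratios were those of mast cell proteases: Cma1 at 0.87 ± 0.13, Mcpt1 at 0.73 ± 0.20 and Gzmb, granzyme B, at 0.48 ± 0.19. Human mast cell chymase is known to cleave IL-18. All 3 are at least as bright as Il1rl1 probe 1, and with the software's log ratio they read 0.44, 0.34 and 0.12. The 200 tested probes nearest to Il1rl1 probe 1 in brightness had a median log2 ratio of 0.47 and an upper quartile of 0.73. With the software's log ratio their median was 0.15. Gzmb lay close to both medians, while Cma1 and Mcpt1 at their brightest probes lay above them. These Cma1 and Mcpt1 probes are brighter than Il1rl1 probe 1, at a mean log2 brightness of 16.9 and 16.7 against 16.5. Ratios rise with brightness in this range. Neither probe was compared with probes of its own brightness. A second Cma1 probe, nearly as bright, was called higher at 0.38 ± 0.21, below the median of 0.47. It read 0.036 with the software's log ratio. Txnip, a partner of thioredoxin that binds NLRP3, fell by 0.44 ± 0.24, Nek7 by 0.36 and Pycard, the inflammasome adaptor, by 0.14. These 3 read above 0 with median centring (0.49, 0.55 and 0.80). A second Pycard probe, nearly as bright, read −0.050 and did not pass (limma, adjusted p = 0.393). The count called higher was 4, 4 and 3 without replicates 1, 2 and 3.

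The chain of adaptors and kinases below the receptors had 19 tested genes. Of these 6 were called higher, 3 lower and 10 neither, with a median of −0.030. Such counts are near the shares over all tested genes, 26.6% higher and 20.7% lower. They take each gene at its brightest probe, and dimmer probes of some genes were called otherwise. Irak1 and Tab2, counted as neither, had dimmer probes called lower, at −0.57 and −0.63 for Irak1 and −0.54 for Tab2. So had Ube2v1 and Tollip. Tirap, counted as higher, had a second probe called lower, at −0.13. With median centring these Irak1, Tab2 and Tirap probes read 0.16, 0.017, 0.089 and 0.36. Ikbkg, the regulatory subunit of the IKK complex, was higher by 0.37 ± 0.14 at its brightest probe, with the other 3 probes between 0.047 and 0.23. Irak4 fell by 0.34 ± 0.074, Tab1 by 0.25 ± 0.082 and Myd88, the adaptor both receptors share, by 0.25 ± 0.21 (log2, SD, n = 4), but with median centring they read 0.15, 0.61 and 0.60. The number called higher was 2 without replicate 1, 2 or 3, and 3 with the software's log ratio.

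Other cytokine receptors of mast cells were split, with 8 of 22 tested genes called higher, 7 lower and 7 neither and a median of 0.060. The shares over all tested genes were 26.6% higher and 20.7% lower. Il17ra fell by 1.02 ± 0.36, and it was below 0 with median centring as well (−0.26). Il4ra, the IL-4 receptor chain, fell by 0.62 ± 0.30 but read 0.51 with median centring. Csf2rb, the common beta chain of several mast cell growth factor receptors, was higher by 0.60 ± 0.19 at its brightest probe, but its other 2 probes were lower by 0.78 and 0.29 (−0.78 and −0.29). Csf2rb2, its near copy, was higher by 0.58 ± 0.18, and signal of one on probes of the other cannot be told apart here. The number called higher was 5, 5 and 4 without replicates 1, 2 and 3.

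For each gene, the 2 genes whose brightest probe had the most similar ratios over the 4 arrays (Euclidean distance, among 12705 genes) were found. They were Mrgpra3 and Cep295 for Il18r1, at distances of 0.025 and 0.031, and Fam214a and Igfbp5 for Il18rap, at 0.028 and 0.043. For Il18 they were Fam110c and Ptpn11, for Il18bp Hus1 and Ap5m1, and for Sigirr Lpgat1 and Gfod1. Il1rl1 had no such close match, with Pank4 at 0.074 and Rab10os at 0.090. Within a distance of 0.2 lay 46 genes for Il1rl1, against 357 for Il18rap and 987 to 1549 for the other 4 genes, so that most of these profiles are common ones on the array.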

How the data were processed

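Per the labels' protocols, column-purified, DNase-treated total RNA was made into labelled cRNA and hybridised to two-colour 4x44K arrays, and per the submitters' processing notes Agilent Feature Extraction 9.1 made the scanner files. The deposited intensities taken from them were each spot's mean brightness and its median local background. The deposited log10 ratios (Cy5 over Cy3) of the software, and of the whole-series value table, which differed from them by at most 0.00496 and had column medians of 0, were used as alternatives only; the software had subtracted background and dye-normalized them, per the file headers.

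Local backgrounds flagged by the software were replaced by the array's median for that channel. This departs from the plan, which kept them, and was chosen after seeing the data: on replicate 1 kept backgrounds pulled the estimated background mean to −277.0 in the stimulated and −380.8 in the unstimulated channel, against −0.46 and 29.6 with the replacement. Then limma 3.58.1 in R 4.3.3 was used: normexp (offset 50), loess within arrays with control and outlier spots given no weight, averaging of spots of 1 probe, lmFit with an intercept and eBayes. A tested probe had at least 3 values and was well above background on 3 or 4 arrays in one and the same channel. Two-sided p-values were adjusted over the 24104 tested probes by the Benjamini-Hochberg method; the ratio within an array is the pair. A gene is represented by its brightest tested probe. No gene spot (0) was saturated, and no member spot (0) was flagged as an outlier. The number of arrays limits the precision. The steps were tested on simulated data.

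The genes, lists and comparisons were chosen with earlier results of these data known. Named besides the 6 genes are up to 4 called genes of each list by size, mast cell markers, and the 2 nearest genes each. Others were named after their values were seen. Array gene names were updated where the accession was found in RefSeq (24913 of 43379 gene spots; 9 of 10 member probes).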

Additional observations from a re-analysis of the deposited data

How the results depend on the processing

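Each value was recomputed under up to 19 alternatives. The 4 arrays in 1 dye orientation limit what could be tested. Il18r1 and Il18bp probe 1 kept direction and call in all 19. Il18rap probe 1 lost its call with the software's log ratio (−0.23), the deposited value table (−0.23), slide 1 (−0.21) or slide 2 (−0.26) on its own, and flagged local backgrounds kept (−0.17), and turned to 0.34 with median centring. Sigirr turned to 0.55 and Il1rl1 probe 3 rose past the threshold to 0.73 with median centring. Il1rl1 probe 1 turned to −0.082 with the software's log ratio and with the value table (−0.082). On slide 1 alone Il18 (0.18) lost its call and Il1rl1 probe 3 turned to −0.20. On slide 2 alone Il18bp probe 2 (0.17), Il1rl1 probe 1 (0.24) and Il1rl1 probe 2 (0.088) lost theirs, and Il1rl1 probe 3 passed (0.31). The cause was not tested, except that a slide on its own has only 2 arrays.

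Leaving out 1 replicate gave −0.29 to −0.16 for Il18rap probe 1, 0.19 to 0.27 for Il18bp probe 2, 0.13 to 0.21 for Il1rl1 probe 2 and −0.074 to 0.19 for Il1rl1 probe 3. Member probes called lower ranged from 0 to 1, all tested probes called higher from 3585 to 6249, and genes called higher from 3 to 7 for IL-18 maturation, 2 to 4 for the adaptor chain and 4 to 6 for other receptors.

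Without the pairing (no replicate block, channels as separate samples), the calls of Il18rap probe 1 (−0.23), Il18bp probe 2 (0.22) and Il1rl1 probe 2 (0.18) were lost. All tested probes called higher fell to 3763, and lists had 4 (maturation), 2 (adaptor chain) and 5 (other receptors) called higher. Member probes called lower were 0 there, with the software's log ratio, the value table, median centring and kept backgrounds. With the software's log ratio and the deposited value table, called higher were 3 genes of the adaptor chain and 4 other receptors. With median centring 17048 probes were called higher and 1359 lower, and the 3 lists had 13, 19 and 20 genes higher and 0, 0 and 1 lower.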
